A study of Homo sapiens with 4 samples.

Results

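HCE cells, a line that the labels describe as undifferentiated, were transfected with a pool of siRNAs against KLF7 or with a scramble control pool, and their RNA was measured on whole-transcript arrays. KLF7 is a zinc finger transcription factor, and the series is about the corneal epithelium. The genes described here are the insulin-like growth factor (IGF) binding proteins IGFBP2, IGFBP3, IGFBP4, IGFBP5, IGFBP6 and IGFBP7, the receptor gene IGF2R, and the RNA-binding protein genes IGF2BP2 and IGF2BP3. They were taken by name, through array features that the platform annotation pairs with 1 gene symbol, and 8 of the 9 were measured among 18417 genes in all. IGFBP6 was not, because its 1 feature carries several symbols, and no value is given for it. The scramble control group and the siKLF7 group held 2 arrays each. Both groups were labelled as undifferentiated HCE cells, plated at 100000 per well, given siRNA at 20 nM and collected 48 hours later. No other allele or agent is named, and whether all arrays came from the same cells is not given. An siRNA pool lowers a transcript without removing the gene. The labels do not say whether arrays of a group stand for separate cultures, so p-values measure the spread between these samples only, which may be technical. In a comparison with 1 control array, the spread between the controls does not enter the p-value.

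IGF binding proteins are secreted proteins that hold IGF1 and IGF2 outside the cell, and so set how much ligand reaches the signalling receptor IGF1R. IGF2R, also called the cation-independent mannose 6-phosphate receptor, carries IGF2 to the lysosome for breakdown and sorts newly made lysosomal enzymes. The IGF2BP proteins act inside the cell, where they bind IGF2 mRNA and many other transcripts and affect their stability and translation. IGF1 is a known growth factor for corneal epithelial cells. In RNA of a whole culture, fewer cells that make a transcript and less of it per cell cannot be told apart.

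The promoters of 3 members are shown because these members had the lowest and the highest difference from scramble control replicate 2 (IGFBP3 and IGF2BP2) and the widest gap between the controls (IGFBP5). Each run is the 250 bases upstream of a RefSeq transcript start in build GRCh38.p14, 5′ to 3′ on the gene's strand. All 3 lie on the minus strand. Capitals mark CACCC and GGGCGG, on either strand, which are short forms of the CACCC-box and GC-box motifs that Kruppel-like factors bind.
IGFBP3 (chr7:45921273-45921522): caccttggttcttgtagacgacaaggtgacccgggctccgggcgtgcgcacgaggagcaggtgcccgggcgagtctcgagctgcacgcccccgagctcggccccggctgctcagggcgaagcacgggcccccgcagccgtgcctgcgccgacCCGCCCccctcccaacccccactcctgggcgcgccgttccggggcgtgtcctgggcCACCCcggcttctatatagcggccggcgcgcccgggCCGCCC
IGFBP5 (chr2:216695550-216695799): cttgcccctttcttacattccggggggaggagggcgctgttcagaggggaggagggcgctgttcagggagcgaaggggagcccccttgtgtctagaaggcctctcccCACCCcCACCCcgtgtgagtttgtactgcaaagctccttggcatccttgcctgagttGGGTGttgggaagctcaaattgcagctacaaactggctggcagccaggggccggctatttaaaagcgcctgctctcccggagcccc
IGF2BP2 (chr3:185825043-185825292): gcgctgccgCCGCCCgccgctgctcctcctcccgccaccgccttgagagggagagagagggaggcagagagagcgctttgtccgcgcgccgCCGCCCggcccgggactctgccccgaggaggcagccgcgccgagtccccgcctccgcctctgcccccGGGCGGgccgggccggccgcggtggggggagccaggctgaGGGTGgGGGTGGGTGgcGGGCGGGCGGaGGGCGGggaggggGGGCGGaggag

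The IGFBP3 window held 1 CACCC and 2 GGGCGG matches, the IGFBP5 window 3 and 0, and the window of the outer of the 2 IGF2BP2 starts 3 and 7. No CACCC match overlapped a GGGCGG match. The RefSeq table held windows for 8 of the 9 members, 11 windows in all. These 8 include IGFBP6, which was not measured, and leave out IGFBP7, which had no window. Of the 11 windows, 9 had a CACCC match and 7 a GGGCGG match. Among all 35116 windows of the same length, 54.7% had a CACCC match and 42.6% a GGGCGG match. Both motifs are common, and binding of KLF7 was not measured here.

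The arrays were checked first. The KLF7 signal was 4649 and 2911 in scramble control replicates 1 and 2 and 1492 and 1122 in siKLF7 replicates 1 and 2, so both siKLF7 arrays lay below both controls. Its log2 difference was -1.16 from scramble control replicate 2 and -1.83 from replicate 1. With both controls KLF7 stood at -1.50 (SE 0.28), and limma's adjusted p of 0.64 did not pass for this targeted gene either. Scramble control replicate 1 stood apart: it correlated with the other arrays at r = 0.934 to 0.938 across genes, while those 3 correlated with each other at 0.990 to 0.994. Of 9 measured markers of the corneal epithelium, 5 were at least 2-fold lower in scramble control replicate 1 than the mean of the other arrays, and their summed signal was 25924 there against 35058 to 41517. KRT3, a keratin of that tissue, had a signal near 0 (0.0055) there, and KRT12 stood at a log2 level of 6.39 against 10.63 to 11.62. CDH1 of the same list went the other way, with a signal of 3939 there against 3161 to 3280. Of 11 fibroblast and keratocyte markers, 3 (POSTN, THY1 and FAP) were at least 2-fold higher there, and the summed signal was 2624 against 1125 to 1163. The largest parts of that sum were THY1 (752) and POSTN (678), while LUM was lowest there (25.1 against 34.6 to 63.5). None of the 7 vascular endothelial, 6 leukocyte and 6 melanocyte markers measured was 2-fold higher or lower there, and no marker was under the pseudocount of 16 on every array. Each member is therefore given against both controls and against each control alone.

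**Figure D1:**
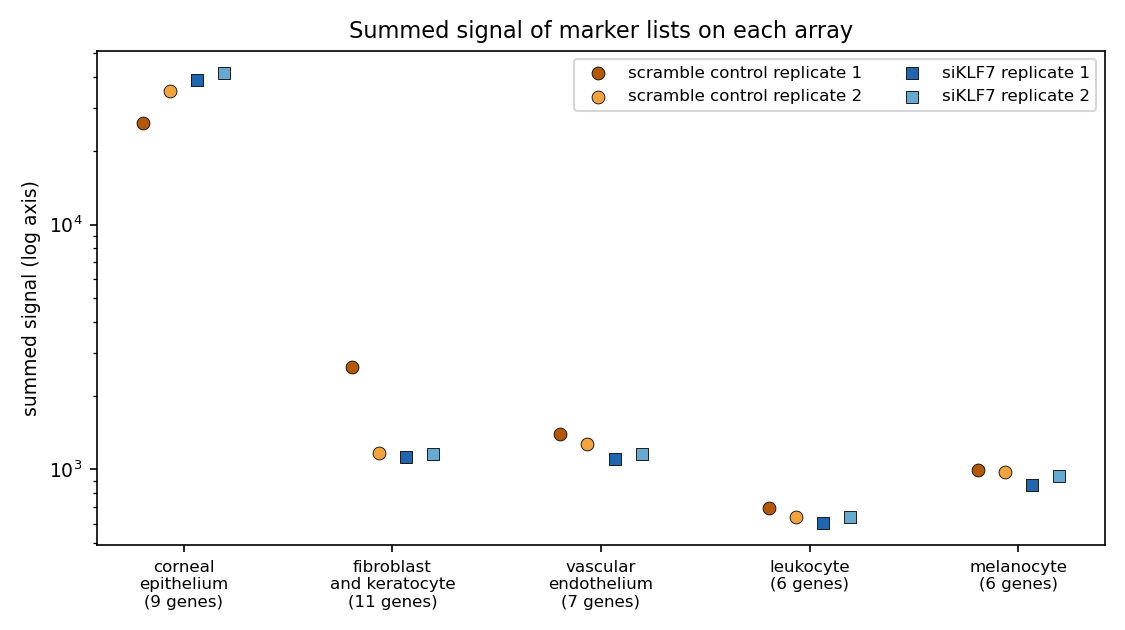
Summed signal of the measured genes of each marker list (log axis) on the 4 arrays. Scramble control replicate 1 has the lowest sum of corneal epithelial markers (25924) and the highest sum of fibroblast and keratocyte markers (2624). It also has the highest sums of vascular endothelial (1391), leukocyte (697) and melanocyte (989) markers, by less. Scramble control replicate 2 is next for these 3 lists, at 1271, 641 and 972.

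No member passed an adjusted p under 0.05 against scramble control replicate 2, and the differences ran from -0.40 for IGFBP3 to 0.21 for IGF2BP2 on the log2 scale. Differences from scramble control replicate 1 ran more widely, from -0.51 for IGF2BP3 to 2.51 for IGFBP5. There IGFBP2, IGFBP3, IGFBP5 and IGF2BP2 were higher in siKLF7 arrays, and IGFBP4, IGFBP7, IGF2R and IGF2BP3 were lower. With both controls together no member passed. Levels are log2(signal + 16), differences are siKLF7 minus control on that scale, which understates the change of dim genes, and tests are limma's, with Benjamini-Hochberg adjustment over all 18417 genes.

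IGFBP3, the main carrier of IGFs in the circulation, had signals of 89.4 and 287 in scramble control replicates 1 and 2 and 216 and 211 in siKLF7 replicates 1 and 2. The siKLF7 arrays lay close together and between the controls, below replicate 2 and above replicate 1. Its log2 difference from scramble control replicate 2 was -0.40 (SE 0.16, 95% interval -0.72 to -0.08), or 1.32-fold lower in signal + 16. That was the 1 member with an unadjusted p under 0.05 in the comparison, and limma's adjusted p of 0.28 did not pass. The sign turned with scramble control replicate 1, to 1.12 (SE 0.16, adjusted p = 9.8e-09), and with both controls the difference was 0.36 (SE 0.51, 95% interval -0.99 to 1.71, adjusted p = 0.78).

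IGFBP5, which binds IGFs and also matrix components, had signals of 31.2 and 248 in the controls and 248 and 257 in the siKLF7 arrays. Scramble control replicate 1 alone was low, and the other arrays were nearly level. On the scale of signal + 16 the control arrays were 5.60-fold apart, while siKLF7 differed from scramble control replicate 2 by 0.02 (SE 0.16, 95% interval -0.30 to 0.35, adjusted p = 0.97). From scramble control replicate 1 the difference was 2.51 (SE 0.16, adjusted p = 3.5e-25), and with both controls it was 1.27 (SE 0.82, 95% interval -0.90 to 3.43, adjusted p = 0.64).

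IGFBP2, another carrier of both ligands and the chromosomal neighbour of IGFBP5 among protein-coding genes of chromosome 2, had signals of 2302 and 3665 in the controls and 3843 and 4088 in the siKLF7 arrays. Both siKLF7 arrays lay above both controls, though by only 0.07 and 0.16 on the log2 scale above scramble control replicate 2. The difference from that array was 0.11 (SE 0.10, 95% interval -0.08 to 0.30, adjusted p = 0.68). It was 0.78 (SE 0.10, adjusted p = 3.1e-10) from scramble control replicate 1 and 0.45 (SE 0.24, adjusted p = 0.64) from both.

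IGFBP4, a binding protein known for holding back IGF action until it is cleaved, had signals of 1194 and 792 in the controls and 879 and 948 in the siKLF7 arrays. The siKLF7 arrays again fell between the controls, here with scramble control replicate 1 on top. The difference was 0.20 (SE 0.15, 95% interval -0.10 to 0.50, adjusted p = 0.64) from scramble control replicate 2, -0.38 (SE 0.15, adjusted p = 0.043) from scramble control replicate 1, and -0.09 (SE 0.23, adjusted p = 0.88) from both. The call against scramble control replicate 1 was lost without an intensity trend in the prior (adjusted p = 0.067).

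IGFBP7, a relative with low affinity for IGFs that is found in the matrix, had signals of 6220 and 5107 in the controls and 5487 and 5316 in the siKLF7 arrays. These signals span a narrow range, with the siKLF7 arrays between the controls. The difference was 0.08 (SE 0.08, 95% interval -0.09 to 0.25, adjusted p = 0.75) from scramble control replicate 2, -0.20 (SE 0.08, adjusted p = 0.043) from scramble control replicate 1 and -0.06 (SE 0.13, adjusted p = 0.85) from both. The second of these was lost with median centring (adjusted p = 0.052), a robust prior (adjusted p = 0.063) or no trend (adjusted p = 0.35).

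IGF2R, the receptor that clears IGF2, had signals of 1469 and 1147 in the controls and 1269 and 1174 in the siKLF7 arrays. The siKLF7 arrays lay inside the range of the controls. The difference was 0.09 (SE 0.14, 95% interval -0.19 to 0.37, adjusted p = 0.84) from scramble control replicate 2, -0.26 (SE 0.14, adjusted p = 0.16) from scramble control replicate 1 and -0.09 (SE 0.17, adjusted p = 0.84) from both, so IGF2R passed in no comparison.

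IGF2BP2 had signals of 1476 and 1352 in the controls and 1546 and 1583 in the siKLF7 arrays. It was the other member with both siKLF7 arrays above both controls, and the one whose controls lay closest together (0.12 apart on the log2 scale). The difference was 0.21 (SE 0.13, 95% interval -0.06 to 0.47, adjusted p = 0.57) from scramble control replicate 2, 0.08 (SE 0.13, adjusted p = 0.69) from scramble control replicate 1 and 0.15 (SE 0.13, 95% interval -0.19 to 0.48, adjusted p = 0.67) from both. None passed.

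IGF2BP3 had signals of 1190 and 804 in the controls and 885 and 778 in the siKLF7 arrays. The siKLF7 arrays lay on either side of scramble control replicate 2 and below scramble control replicate 1. The difference was 0.04 (SE 0.15, 95% interval -0.26 to 0.35, adjusted p = 0.93), -0.51 (SE 0.15, adjusted p = 0.0057) and -0.23 (SE 0.23, adjusted p = 0.70) from scramble control replicate 2, from replicate 1 and from both.

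**Figure D2:**
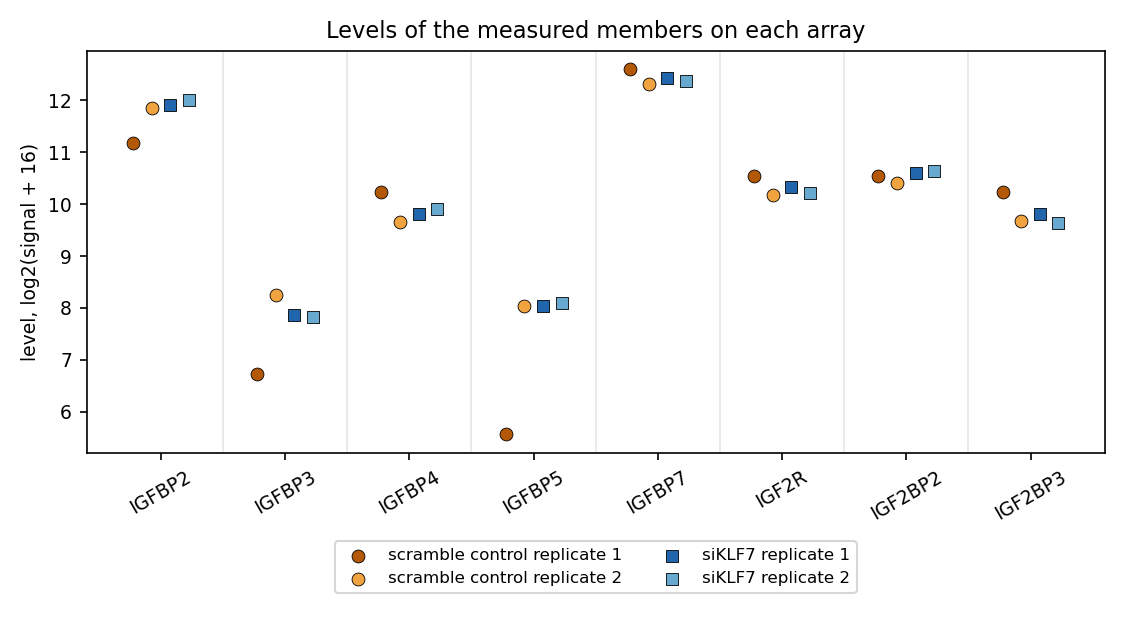
Level of each measured member, log2(signal + 16), on the 4 arrays (circles, scramble controls; squares, siKLF7). Scramble control replicate 1 is the lowest array for IGFBP2, IGFBP3 and IGFBP5. Levels of different genes come from different features and are not compared.

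Over the members as a group, 7 of 8 differences from scramble control replicate 2 were above 0 and 1 below, with a median of 0.08 against -0.04 over all genes. Of all genes 1.57% passed in that comparison (290 of 18417). In the comparison with scramble control replicate 1, 3 members passed higher and 3 lower, with a median of -0.06 against -0.05 over all genes, and 26.8% of all genes passed. With both controls, 0 of 8 members and 0% of genes passed by limma. At an unadjusted p under 0.05 the counts were 0 members and 1069 genes, and the members' median was 0.04 against -0.05. For 2 members both siKLF7 arrays lay outside the range of the controls, against 45.2% of all genes. The comparisons share the siKLF7 arrays and are not independent of one another. In the comparison with scramble control replicate 2, the markers that passed were KRT12, KRT3, KRT15 and ALDH3A1 of the 9 for the corneal epithelium and LUM and POSTN of the 11 for fibroblasts and keratocytes, all higher in siKLF7 arrays, by 0.57 (KRT3) to 0.86 (POSTN). Their part in the members' values was not tested.

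The spread within each pair shows where the members varied. The siKLF7 arrays differed from each other by a median of 0.07 over the 8 members, at most 0.18 (IGF2BP3), against 0.12 over all genes. The control arrays differed by a median of 0.57 over the members, against 0.20 over all genes. By sign, scramble control replicate 1 was below replicate 2 for IGFBP2, IGFBP3 and IGFBP5, by 0.67, 1.52 and 2.49, and above it for the other members, by 0.12 to 0.58. In that array 5 of 9 corneal epithelial markers and 3 of 11 fibroblast and keratocyte markers differed at least 2-fold from the other arrays' mean.

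**Figure D3:**
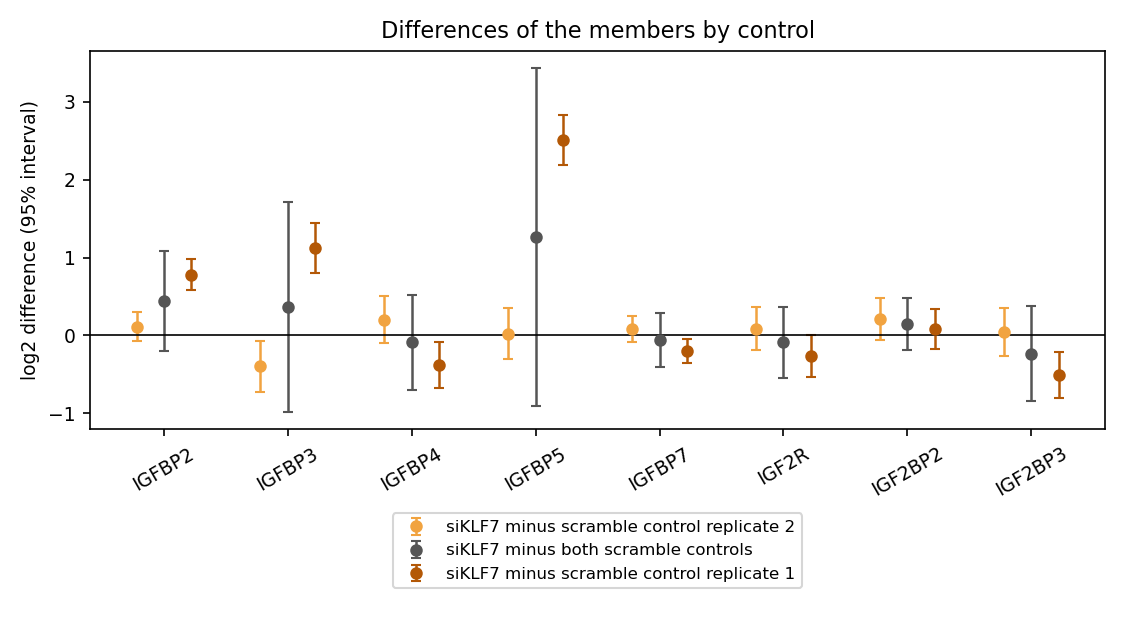
Log2 difference of the siKLF7 arrays from scramble control replicate 2, from both controls and from scramble control replicate 1, with limma's 95% interval. Differences from scramble control replicate 2 lie between -0.40 and 0.21, while those from scramble control replicate 1 reach 2.51 for IGFBP5.

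Genes most like IGFBP5 and IGFBP3 were taken as the 5 with the smallest Euclidean distance over the 4 arrays, each gene centred on its own mean. For IGFBP5 these were TM7SF2, a sterol reductase, KLF4, a transcription factor of epithelial differentiation, TCEA3, ABCA12, a lipid transporter of keratinocytes, and FAM83C, at distances of 0.10 to 0.12. Each was low in scramble control replicate 1 alone, as with KLF4 at 7.41 against 9.89, 9.95 and 10.07. For IGFBP3 they were MXD1, a partner of MAX that opposes MYC, BAMBI, a decoy receptor of the TGF-beta family, the protocadherin PCDH1, GPRC5A and CSTA, a protease inhibitor of the cornified envelope, at 0.09 to 0.13. Their differences from scramble control replicate 2 ran from -0.46 to -0.25. Both sets of genes were chosen on these same arrays, so their likeness to the member follows from the choice. A distance of 0.5 or less took in 72 other genes for IGFBP5 and 315 for IGFBP3.

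The genes around the members were read through 6 lists, 106 of whose 116 genes were measured. One comparison, with scramble control replicate 2, had 1 gene of the lists that rose (STC1) and 3 that fell (MMP1, GRB10 and MYC), which is 3.77% against the background of 1.57%. The other, with scramble control replicate 1, had 11 that rose and 20 that fell, or 29.2% against 26.8%. With both controls 0 passed.

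Among ligands, receptors and other binding proteins, 0 of 8 measured genes passed against scramble control replicate 2, and all 8 values were below 0, with a median of -0.25 (all genes -0.04). Both siKLF7 arrays lay below both controls for 5 of these 8 genes, and for a smaller share of all genes (5320 of 18417). IGF1, INSR, INSRR and IGF2BP1 were dim, with signals under the array medians (185 to 194) on every array. Of 7 vascular endothelial markers, 0 were above scramble control replicate 2 by this measure and 6 lay below both controls. Marker medians from that control were -0.18 for vascular endothelium, -0.002 for leukocytes and -0.07 for melanocytes. INSR, the insulin receptor, had signals of 168 and 161 in the controls and 126 and 126 in the siKLF7 arrays, a difference of -0.32 (SE 0.16, adjusted p = 0.44) from replicate 2 and -0.37 (SE 0.16, adjusted p = 0.074) from replicate 1. IGF1R, the receptor that signals for both IGFs, had signals of 2466 and 1285 in the controls and 1110 and 1056 in the siKLF7 arrays. Its order was therefore control replicate 1, control replicate 2, then siKLF7. The IGF1R difference was -0.24 (SE 0.14, adjusted p = 0.53) from scramble control replicate 2 and -1.18 (SE 0.13, adjusted p = 4.8e-12) from scramble control replicate 1, and a second feature of the gene gave -0.19 and -1.39. The ligand gene IGF1 stood at -0.27 (SE 0.16, adjusted p = 0.54) from scramble control replicate 2 and -0.04 from replicate 1. IGFBP1, the neighbour of IGFBP3 on chromosome 7, stood at -0.30 (SE 0.17), INSRR, an orphan relative of the insulin receptor, at -0.26 (SE 0.16), the RNA-binding relative IGF2BP1 at -0.18 (SE 0.16), IGFALS, which holds IGF and IGFBP3 in a serum complex, at -0.06 (SE 0.16) and IGFBPL1 at -0.06 (SE 0.17) from scramble control replicate 2. Their differences from scramble control replicate 1 were -0.25, -0.13, -0.18, -0.08 and 0.13 in that order, so IGFBPL1 had the opposite sign, and none of the 5 passed. IGF1R was the 1 gene of the list that passed there. IGF2 and INS share 1 feature, which carries several symbols, and were not measured.

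Of 14 proteases that cut IGF binding proteins and their inhibitors, 1 rose and 1 fell against scramble control replicate 2, where the list median was -0.04. MMP1, an interstitial collagenase, had signals of 3436 and 271 in the controls and 144 and 156 in the siKLF7 arrays. Both siKLF7 arrays were the lowest, and the controls were 12.0-fold apart in signal + 16. MMP1 fell by 0.79 (log2, SE 0.16, adjusted p = 0.00089) from scramble control replicate 2. It stood at -4.38 (SE 0.16, adjusted p = 2.1e-41) from scramble control replicate 1 and at -2.58 (SE 1.18, adjusted p = 0.64) with both. STC1, a stanniocalcin that inhibits the IGFBP4 protease PAPPA, had signals of 180 and 72.6 in the controls and 145 and 147 in the siKLF7 arrays. It rose by 0.87 (SE 0.16, adjusted p = 0.00017) against scramble control replicate 2, but the siKLF7 arrays lay between the controls, at -0.28 (SE 0.16, adjusted p = 0.21) from scramble control replicate 1. STC2, a second inhibitor of PAPPA, stood at -0.49 (SE 0.15, adjusted p = 0.083) from scramble control replicate 2, at 0.78 (SE 0.16, adjusted p = 4.7e-05) from scramble control replicate 1 and at 0.14 (SE 0.44, adjusted p = 0.90) from both. The siKLF7 arrays thus lay between the controls for both stanniocalcin genes, in opposite order. ADAM9 stood at 0.22 (SE 0.10, adjusted p = 0.40) from scramble control replicate 2 and 0.04 from replicate 1. In all, 3 genes of the list rose and 4 fell in the comparison with scramble control replicate 1.

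In the list of IRS, PI3K, AKT and mTOR signalling, 1 of 31 genes fell and 0 rose against scramble control replicate 2, with a median of -0.06. GRB10, an adaptor that binds the IGF1 and insulin receptors and dampens their signal, had signals of 662 and 577 in the controls and 368 and 335 in the siKLF7 arrays. Its groups did not overlap and the gap was wider than the spread within either pair. GRB10 fell by 0.69 (SE 0.16, adjusted p = 0.0072) from scramble control replicate 2, or 1.61-fold in signal + 16, and fell by 0.88 (SE 0.16, adjusted p = 7.0e-06) from scramble control replicate 1. With both controls it stood at -0.79 (SE 0.15, adjusted p = 0.64). Its direction and its calls against each control held under the 9 other settings run for each. EIF4EBP1, a translation repressor under mTOR, stood at -0.35 (SE 0.13, adjusted p = 0.20) from scramble control replicate 2, at 0.49 (SE 0.13, adjusted p = 0.0031) from scramble control replicate 1 and at 0.07 (SE 0.30, adjusted p = 0.93) from both, so its sign depended on the control. PIK3R3, a PI3K regulatory subunit, stood at 0.54 (SE 0.16, adjusted p = 0.076), -0.01 (SE 0.16, adjusted p = 0.97) and 0.26 (SE 0.22, adjusted p = 0.66) in the same order. TSC1, an inhibitor of mTOR, was below both controls, at -0.39 (SE 0.16, adjusted p = 0.28) from replicate 2 and -0.34 (SE 0.16, adjusted p = 0.11) from replicate 1. In all, 3 genes of the list rose and 6 fell in the comparison with scramble control replicate 1.

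Among 23 partners of the IGF2BP proteins and genes of the m6A machinery, 1 fell and 0 rose against scramble control replicate 2, with a median of 0.04. MYC, a transcription factor whose mRNA IGF2BP proteins are known to bind, had signals of 3775 and 3790 in the controls and 3016 and 2779 in the siKLF7 arrays. The controls were nearly equal and both siKLF7 arrays lay below them. MYC fell by 0.39 (SE 0.10, adjusted p = 0.030) from scramble control replicate 2 and fell by 0.38 (SE 0.10, adjusted p = 0.0022) from scramble control replicate 1. Without an intensity trend these calls were lost (adjusted p = 0.33 and 0.068), and with both controls MYC stood at -0.38 (SE 0.11, adjusted p = 0.64). The RNA-binding protein genes DHX9, MATR3 and HNRNPU stood at 0.31 (SE 0.14, adjusted p = 0.36), 0.23 (SE 0.13, adjusted p = 0.53) and 0.17 (SE 0.11, adjusted p = 0.57) from scramble control replicate 2. Their differences from scramble control replicate 1 were 0.25, 0.35 and 0.18, of which that of MATR3 passed (adjusted p = 0.042). In all, 4 genes of the list rose and 4 fell in that comparison.

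The lists nearest to IGF2R and to the IGFBP domain had no call against scramble control replicate 2. Among 22 genes of mannose 6-phosphate sorting and lysosomal cargo, the median was 0.04. M6PR, the smaller receptor that shares the cargo of IGF2R, stood at 0.31 (SE 0.12, adjusted p = 0.26), and the lysosomal enzyme genes CTSA, CTSB and GLA at -0.30 (SE 0.12), -0.22 (SE 0.11) and 0.26 (SE 0.16). From scramble control replicate 1 M6PR stood at 0.07 and CTSA at -0.03, while CTSB passed at -0.31 (SE 0.11, adjusted p = 0.024). GLA turned sign there and passed, at -0.62 (SE 0.16, adjusted p = 0.0019), and stood at -0.18 (SE 0.32, adjusted p = 0.82) with both controls. In all, 1 gene of the list rose and 4 fell in the comparison with scramble control replicate 1. Among 13 relatives that carry an IGFBP domain, the median was -0.06. HTRA1, a secreted protease, stood at 0.21 (SE 0.13, adjusted p = 0.54), KAZALD1 at -0.27 (SE 0.16), CRIM1 at 0.15 (SE 0.12) and CCN6 at -0.18 (SE 0.16). From scramble control replicate 1 they stood at -0.05, -0.31, -0.01 and -0.25, so HTRA1 and CRIM1 had the opposite sign, and none of the 4 passed. The 1 call of the list there was CCN1, a matricellular protein gene, at -0.88 (adjusted p = 1.2e-07).

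**Figure D4:**
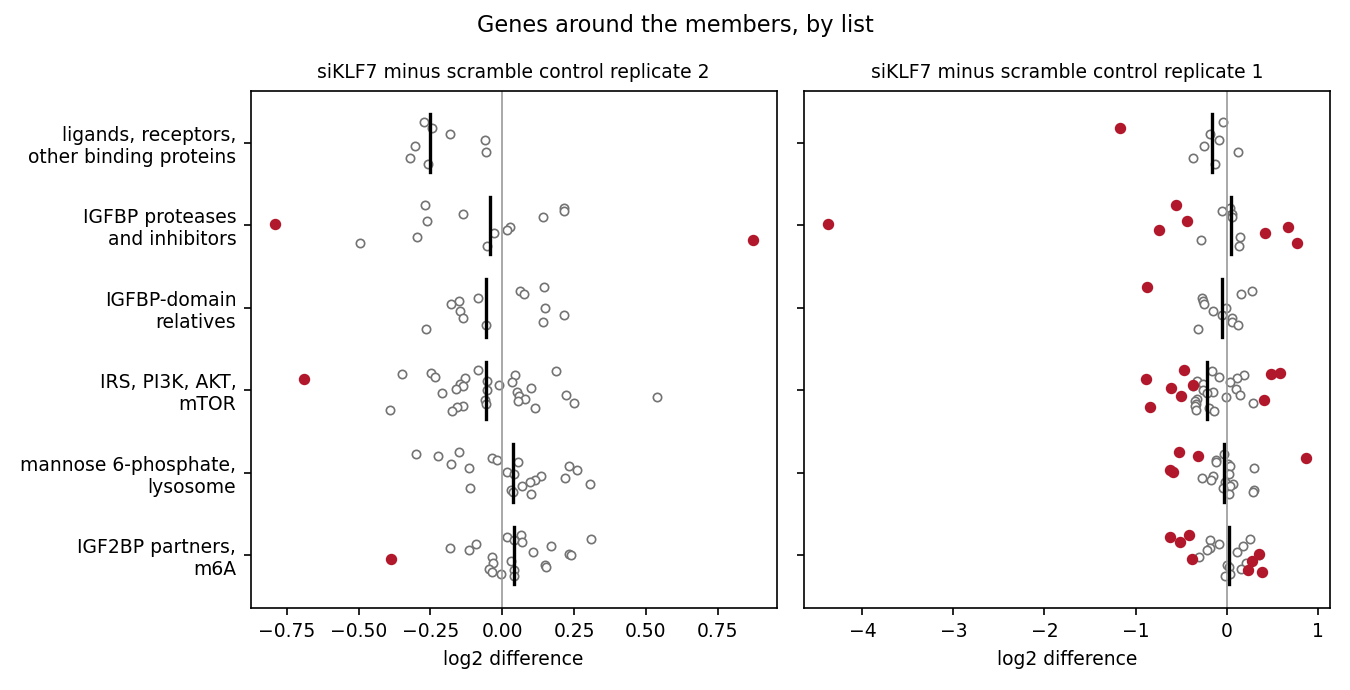
Log2 difference of each measured gene of the 6 lists from scramble control replicate 2 (left) and replicate 1 (right; wider axis). Filled points passed at an adjusted p under 0.05 and black bars are list medians; 4 genes passed on the left (MMP1, STC1, GRB10 and MYC) and 31 on the right.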

How the data were processed

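RNA of 4 HCE samples was hybridised to 1-colour whole-transcript arrays. The authors deposited 1 table of array intensity on a linear scale, for which the submitters' processing notes name Expression Console 1.1.1 and PLIER 2.0. Any scaling between arrays is not stated in those notes or the labels, and no detection call was used. Separately, the number of arrays limits the precision.

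Of 33297 features, 19460 had 1 gene symbol in the platform annotation, 1754 had several and 12083 had none listed. The brightest feature of a gene was used, which gave 18417 genes, and each measured member had 1 feature. Log2(signal + 16) values were tested in limma 3.58.1 (R 4.3.3; lmFit, then eBayes with its trend option) at an adjusted p under 0.05. With 1 control the fit had 1 residual degree of freedom, so its spread came from the siKLF7 pair and the prior (74.2 and 86.2 prior degrees of freedom for controls 2 and 1), and the single control array is taken to vary as the siKLF7 pair does. With all arrays there were 2 and 2.63. An exact two-sided permutation test of 2 against 2 cannot go below p = 0.33 and was not used.

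The members, lists and tests were chosen with earlier results of these data known. Up to 4 genes a list were named by the smallest limma p against scramble control replicate 2, and every gene of the first list. The 5 nearest genes were named for the members with the largest absolute difference, with 4 arrays and against scramble control replicate 2. Marker lists were fixed with them. Of 158 listed genes 145 were measured. Alternatives were quantile normalization, median centring, filters on dim genes, other priors, the mean of a gene's features, pseudocounts of 1 and 32, each array left out in turn, and a block for replicate number. Promoters and gene order came from RefSeq tables of GRCh38.p14. The array files name no build, so coordinates are given only for the RefSeq promoter windows and not for array features. Figures were drawn with matplotlib 3.10.9.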

Additional observations from a re-analysis of the deposited data

How the results depend on the processing

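With both controls, no gene passed under any of the 10 other settings that keep all arrays, and leaving out 1 array gave 0 to 4935 genes and 0 to 6 members. The number was 290 genes and 0 members without scramble control replicate 1, and 4935 genes and 6 members without scramble control replicate 2. Of the 8 members, 5 changed sign when scramble control replicate 1 was left out. Of the 5 pathway genes recomputed in the same way (STC1, MMP1, GRB10, MYC and IGF1R), STC1 changed sign when scramble control replicate 2 was left out. Other named pathway genes whose sign depends on the control are IGFBPL1, STC2, HTRA1, CRIM1, PIK3R3, EIF4EBP1 and GLA. Over the arrays left out in turn, IGFBP3 ran from -0.40 to 1.12, IGFBP4 from -0.38 to 0.20, IGFBP7 from -0.20 to 0.080, IGF2R from -0.26 to 0.088 and IGF2BP3 from -0.51 to 0.044, and STC1 from -0.28 to 0.87. Against scramble control replicate 2, median centring gave 461 genes and a prior without trend 172, and the cause was not tested. All 70 member values there kept their direction and missed the threshold. Against scramble control replicate 1, 66 of 70 did not change their call and 4 lost it (IGFBP7 with 3 settings, IGFBP4 with 1). The filter on the dimmest 50% of genes removed IGFBP3 and IGFBP5, so it gives no value for them. With the replicate number as a block in the fit, 0 genes and 0 members passed. The labels do not say that the numbers pair samples, and the within-pair differences of the groups correlated at r = -0.04 across genes. Each group held 2 arrays, and either control alone leaves the spread of controls unmeasured. Leaving out a siKLF7 array from a comparison with 1 control would leave 1 array against 1, with no test, and was not run.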

Other observations

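IGF-like family genes, which encode small secreted proteins of the skin and other epithelia, were looked at after their values were seen. IGFL1 had log2 levels of 7.03 and 8.05 in scramble control replicates 1 and 2 and 8.33 and 8.01 in siKLF7 replicates 1 and 2, and IGFL2 had 5.96, 6.71, 7.05 and 6.91. Both were low in scramble control replicate 1, at differences of 1.14 (SE 0.16) and 1.02 (SE 0.16) from that array, and stood at 0.12 (SE 0.17, limma adjusted p = 0.81) and 0.27 (SE 0.16, limma adjusted p = 0.53) from scramble control replicate 2. IGFL3, IGFL4 and their receptor gene IGFLR1 stood at -0.33, -0.11 and -0.24 from scramble control replicate 2, and none of these passed. The antisense genes IGF2-AS and IGF2BP2-AS1 stood at -0.19 and -0.21 from that array, and without strand information their features may also take in the genes they overlap.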
